A study of Mus with 12 samples.

Results

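The 31 genes described here encode enzymes and regulators of cholesterol and fatty acid synthesis. They were taken by symbol from the 55491 entries of a bulk RNA sequencing table of mouse CD8 T cells, and all 31 symbols matched a single entry. The table held 12 libraries in 6 groups of 2: RARα-KO+RA, RARα-KO, BATF-KO+RA, BATF-KO, WT+RA and WT. Per the labels, naive CD8 T cells came from spleens of mice with a C57BL/6 background. All groups were activated for 20 h on wells coated with anti-CD3 at 1 µg/ml. The medium held anti-CD28 at 2 µg/ml, 100 U of IL-2 per ml and 10% serum stripped with charcoal, and the groups marked +RA also received retinoic acid (RA) at 15 nM. RARα-KO cells carried a floxed gene for the retinoic acid receptor RARα and a Cre transgene under the distal Lck promoter, which is active in T cells, so that other cells of these mice should keep the receptor. BATF-KO cells lacked BATF, a transcription factor of the AP-1 family that effector T cells need, and WT cells had no such deletion. Whether the 2 libraries of a group came from separate mice or from separate cultures is not given in the sources used here, so the p-values measure the spread between these libraries only.

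Cells build cholesterol from acetyl-CoA through mevalonate, farnesyl diphosphate and squalene, and they build saturated fatty acids from acetyl-CoA through malonyl-CoA. Both routes are driven by the SREBP transcription factors, which the escort protein SCAP carries out of the endoplasmic reticulum when sterols are low and which INSIG proteins hold there when sterols are high. T cells that leave quiescence enlarge and divide, and activation is known to turn on this programme to supply membrane lipid.

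All 31 genes were expressed in these cells. Values are FPKM, which divides the fragments of a gene by the length of its transcripts and by the size of the library, so that levels can be compared between genes. The highest median over the 12 libraries was that of Fdps, farnesyl diphosphate synthase, at 91.0 FPKM (51.3 to 129 FPKM). Next came Acly, which makes cytosolic acetyl-CoA from citrate, at 81.2 FPKM, and Srebf2, the SREBP gene tied most closely to cholesterol synthesis, at 73.4 FPKM. The lowest medians were those of the desaturases Fads2, at 1.41 FPKM, and Scd1, at 3.00 FPKM. Summed over the 31 genes, the level was between 656.7 and 1170.6 FPKM per library, or 0.0861 to 0.157% of all FPKM. The genes differed widely in how much they varied. The highest library exceeded the lowest 1.37-fold for Srebf1, for Ebp and for Tm7sf2, a sterol reductase, and 1.43-fold for Acly, against 29.0-fold for Scd1.

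**Figure D1:**
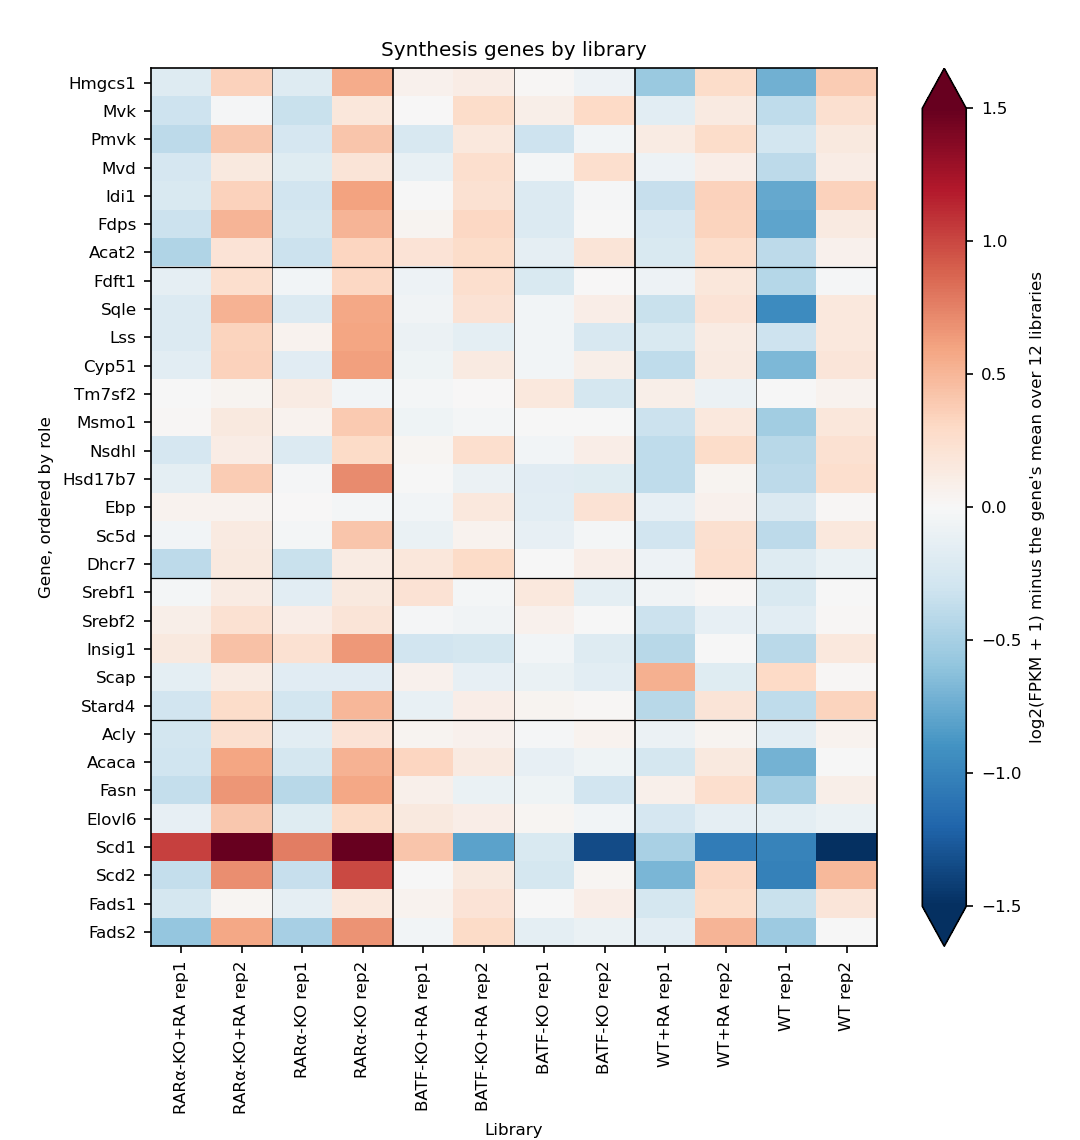
Heat map of the 31 genes (vertical axis, ordered from mevalonate steps to fatty acid synthesis, black lines between roles) in the 12 libraries (horizontal axis). Colour gives log2(FPKM + 1) minus the mean of that gene over all libraries. Scd1 has the strongest contrast, from 0.79 FPKM in a WT library to 22.9 FPKM in a RARα-KO+RA library, and most other genes are lower (blue) in replicate 1 of the WT and RARα-KO groups than in replicate 2 (red).

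Between 12085 and 12487 genes reached 1 FPKM per library. Batf was at 4.05 to 4.90 FPKM in the 4 BATF-KO libraries. Rara was at 11.1 to 17.9 FPKM in every library, which does not test the deletion, since the shortened transcript is still counted. The RARα-KO libraries held more RNA of other cell types: the 12 B cell markers summed to 942 and 1143 FPKM in RARα-KO+RA and 914 and 996 FPKM in RARα-KO, against 414 to 418 in BATF-KO+RA, 393 to 419 in BATF-KO, 299 to 470 in WT+RA and 269 to 452 FPKM in WT. All 12 B cell markers were higher in RARα-KO than in WT, with a median log2 change of 2.38 without RA and 2.62 with RA. Of these, 11 passed the test under either RA condition, where 3.29% and 3.76% of all genes did. The 10 NK cell markers were all higher in RARα-KO than in WT, and 4 of them passed the test without RA and 5 with RA. The 10 CD8 T cell markers were all lower in RARα-KO than in WT, and 1 of them passed the test. No B cell or myeloid marker was at 0 in both libraries of a group. The part of these cells in the results on synthesis genes was not tested.

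Most synthesis genes were higher in replicate 2 than in replicate 1, by more in the WT and RARα-KO groups than in the BATF-KO groups. Of 31 genes, replicate 2 was higher than replicate 1 in 31 for RARα-KO+RA, 28 for RARα-KO, 22 for BATF-KO+RA, 19 for BATF-KO, 28 for WT+RA and 29 for WT. Between 43.1% and 50.7% of all genes tested were higher in replicate 2. For 17 of the 31 genes replicate 2 was higher in all 6 groups, as for 10.8% of all genes. The median ratio of replicate 2 to replicate 1 over the 31 genes was 1.46 in RARα-KO+RA, 1.46 in RARα-KO, 1.35 in WT+RA and 1.49 in WT, but 1.09 in BATF-KO+RA and 1.06 in BATF-KO. The ratio of summed levels was larger for the 7 genes of the mevalonate steps than for the 11 from squalene to cholesterol in all 6 groups: 1.60 against 1.28 in RARα-KO+RA, 1.68 against 1.39 in RARα-KO, 1.18 against 1.12 in BATF-KO+RA, 1.14 against 1.08 in BATF-KO, 1.45 against 1.33 in WT+RA, and 1.80 against 1.48 in WT. Hmgcs1, which makes HMG-CoA, was at 38.1 and 55.5 FPKM in RARα-KO+RA (replicates 1 and 2, an order kept throughout), 38.1 and 64.7 in RARα-KO, 45.6 and 47.1 in BATF-KO+RA, 44.2 and 41.4 in BATF-KO, 29.3 and 53.0 in WT+RA, and 26.1 and 57.1 FPKM in WT. Sqle, the epoxidase that opens the sterol branch, was at 16.9 and 28.5 FPKM in RARα-KO+RA, 16.9 and 29.9 in RARα-KO, 18.9 and 23.0 in BATF-KO+RA, 19.0 and 21.1 in BATF-KO, 15.4 and 22.9 in WT+RA, and 9.74 and 22.0 FPKM in WT. For both enzymes the libraries of WT and of RARα-KO spread so far that each group covers most of the BATF-KO values. In bulk RNA, fewer cells of a type and less RNA per cell cannot be told apart.

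In the same libraries, 10 replication genes summed to 702 and 1182 FPKM in RARα-KO+RA, 663 and 1257 in RARα-KO, 1099 and 1394 in BATF-KO+RA, 905 and 1215 in BATF-KO, 878 and 1295 in WT+RA, and 612 and 1183 FPKM in WT. They were thus higher in replicate 2 of all 6 groups. Another list, 8 genes of activation and growth such as Myc and Il2ra, summed to 638 and 951 FPKM in RARα-KO+RA and 570 and 1009 in RARα-KO. These 8 genes were at 644 and 646 FPKM in BATF-KO+RA, 580 and 594 in BATF-KO, 704 and 718 in WT+RA, and 476 and 672 FPKM in WT. The part of either list in the pattern of the synthesis genes was not tested. What the number stands for is not given in the sources used here. Scd1 went the other way in 4 groups: it was lower in replicate 2 of BATF-KO+RA, BATF-KO, WT+RA and WT, and higher there in both RARα-KO groups.

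**Figure D2:**
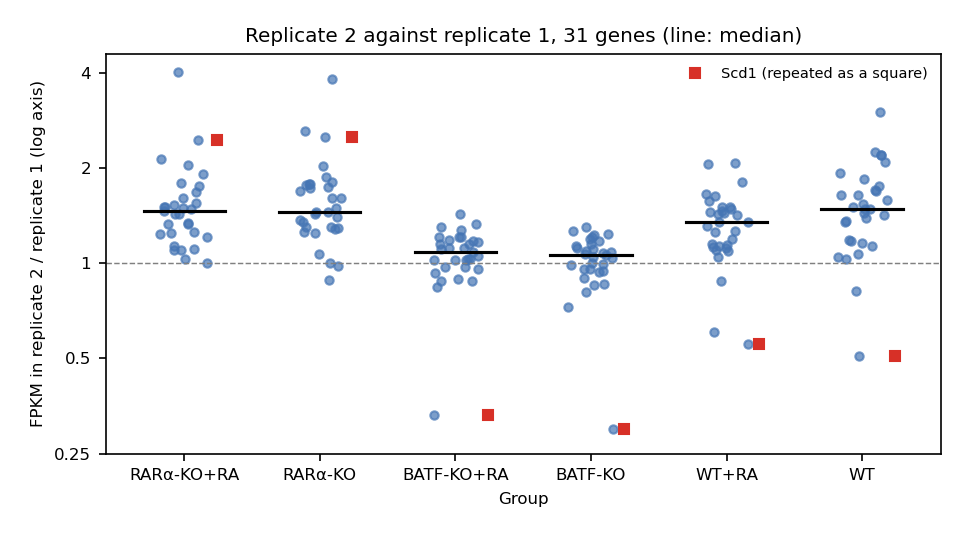
Ratio of FPKM in replicate 2 to FPKM in replicate 1 (vertical log axis) for each of the 31 genes in each group (horizontal axis). Black lines are medians, from 1.06 in BATF-KO to 1.49 in WT, and the squares repeat Scd1, which lies below 1 in the BATF-KO and WT groups and above 1 in the RARα-KO groups.

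Scd1 was the synthesis gene with the clearest difference between genotypes. It encodes stearoyl-CoA desaturase 1, which puts a double bond into stearic and palmitic acid, and it lies at chr19:44394450-44407709 (GRCm38). Scd1 was at 9.37 and 22.9 FPKM in RARα-KO+RA, 7.70 and 19.3 in RARα-KO, 5.84 and 1.93 in BATF-KO+RA, 3.37 and 1.01 in BATF-KO, 2.64 and 1.47 in WT+RA, and 1.55 and 0.79 FPKM in WT. Every RARα-KO library was therefore above every other library, whereas BATF-KO and WT libraries overlapped.

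Without RA, Scd1 rose to 13.5 ± 8.19 FPKM in RARα-KO, against 1.17 ± 0.537 FPKM in WT (SD, n = 2 each), a log2 change of 2.64 ± 0.59 (SE) on the scale of log2(FPKM + 1), with an adjusted p of 0.0445 by limma. This was the only call among the 31 genes in this comparison, in which 3.29% of the 13396 genes tested were called, 2.78% as higher in RARα-KO. With RA, the log2 change was 2.39 ± 0.59 with an adjusted p of 0.0638, so that RARα-KO+RA (16.1 ± 9.57 FPKM) against WT+RA (2.06 ± 0.827 FPKM) missed the threshold, as did all 31 genes in a comparison with 3.76% of all genes called. Set against BATF-KO, RARα-KO had a log2 difference of 2.16 ± 0.59 (adjusted p = 0.0934), and with RA the difference was 1.81 ± 0.59 (adjusted p = 0.170).

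The direction held without any 1 of the 4 libraries compared, and the call held only without RARα-KO replicate 1. Leaving out RARα-KO replicate 1 gave a log2 change of 3.25 (adjusted p = 0.0437), and leaving out RARα-KO replicate 2 gave 2.03 (adjusted p = 0.295). With WT replicate 1 left out the log2 change was 2.89 (adjusted p = 0.130), and with WT replicate 2 left out it was 2.38 (adjusted p = 0.220). In these fits the lone library is assumed to vary like those of the other groups. The call was also lost with a pseudocount of 0.1 (adjusted p = 0.0519), without a filter on low values (0.156) and when only WT and RARα-KO libraries were fitted (0.141). Fold sizes differed between replicate numbers, with RARα-KO 4.97 times WT in replicate 1 and 24.4 times WT in replicate 2. The 9 myeloid markers summed to 101.2 and 90.9 FPKM in RARα-KO+RA, 144 and 76.8 in RARα-KO, 65.3 and 20.3 in BATF-KO+RA, 77.5 and 19.8 in BATF-KO, 36.1 and 23.7 in WT+RA, and 39.3 and 26.8 FPKM in WT. In BATF-KO and WT, with and without RA, the library with more Scd1 had the higher myeloid sum. In RARα-KO it had the lower one, but there the markers did not move together: without RA, 4 were higher and 5 lower in replicate 2, and with RA 4 and 5. Without S100a8 and S100a9, the other 7 summed to 41.1 and 37.7 FPKM in RARα-KO+RA and 34.65 and 32.1 in RARα-KO. In all 6 groups the replicate with more Scd1 also had the higher sum of B cell markers, which was 942 and 1143 FPKM in RARα-KO+RA, 914 and 996 in RARα-KO, 418 and 414 in BATF-KO+RA, 419 and 393 in BATF-KO, 470 and 299 in WT+RA, and 452 and 269 FPKM in WT. The 10 NK cell markers summed to 138 and 158 FPKM in RARα-KO+RA, 123 and 138 in RARα-KO, 111 and 59.7 in BATF-KO+RA, 95.8 and 51.2 in BATF-KO, 65.3 and 52.2 in WT+RA, and 62.7 and 41.3 FPKM in WT. In RARα-KO the higher sum of replicate 2 came from Eomes, a transcription factor that CD8 T cells also express: the other 9 summed to 106 and 88.7 FPKM in RARα-KO+RA and 95.1 and 77.05 FPKM in RARα-KO, so that without Eomes the library with more Scd1 had less NK cell RNA. The part of these cells in the result was not tested.

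Scd2, the paralog next to Scd1 at chr19:44293676-44306864, did not separate the genotypes as Scd1 did. Scd2 was at 18 and 38.5 FPKM in RARα-KO+RA, 18.2 and 47.6 in RARα-KO, 23.3 and 26.1 in BATF-KO+RA, 19.3 and 23.9 in BATF-KO, 14.2 and 29.2 in WT+RA, and 11.1 and 33.3 FPKM in WT. The groups overlapped, and the log2 change in RARα-KO against WT was 0.59 ± 0.59 (95% interval -0.73 to 1.91). Within replicates 1 and 2, Scd2 in RARα-KO was 1.65 and 1.43 times WT without RA. With RA it was 1.27 and 1.32 times WT. Whether Scd2 shares a smaller rise with Scd1 was thus not settled. Scd2 exceeded Scd1 in all 12 libraries, and in BATF-KO and WT groups replicate 2 had more Scd2 and less Scd1 than replicate 1. The related genes Scd3 and Scd4 were at most at 0.24 and 0.33 FPKM.

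**Figure D3:**
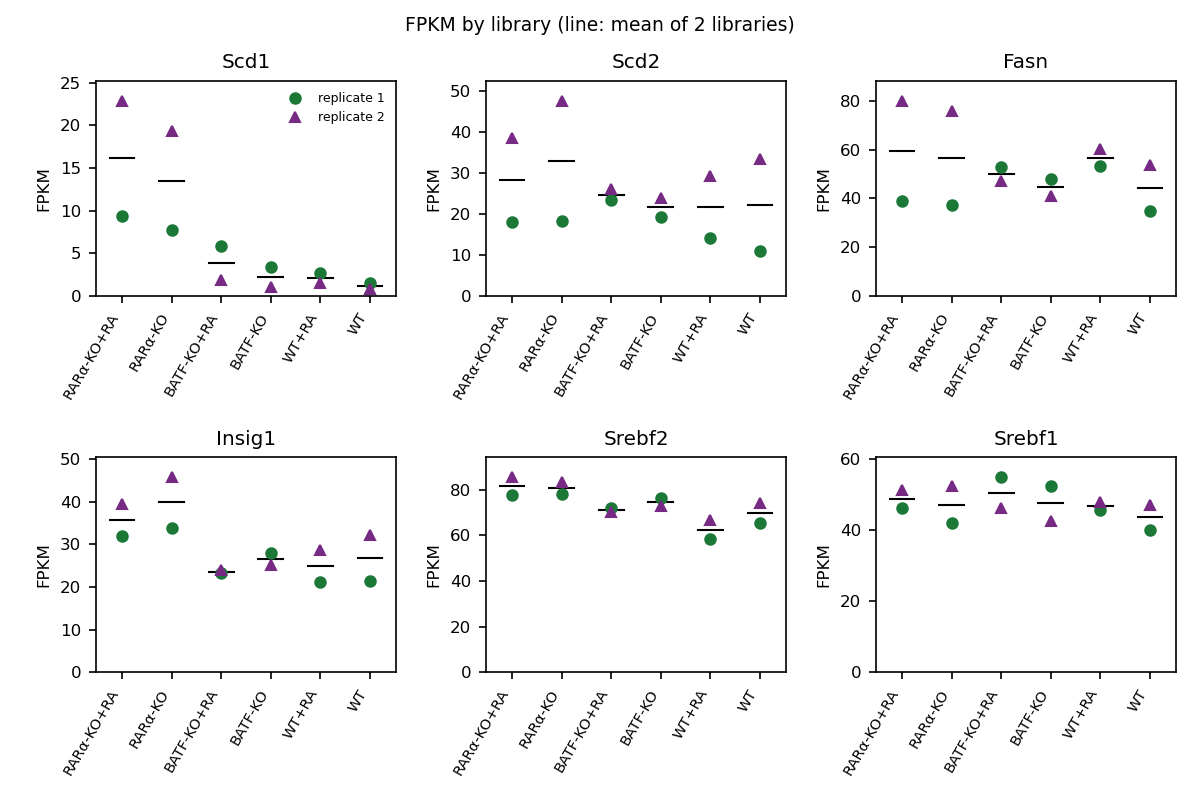
FPKM (vertical axes, from 0) of 6 genes in the 6 groups (horizontal axes), with circles for replicate 1, triangles for replicate 2 and a line at the mean of the 2 libraries. For Scd1 and Srebf2 the 4 RARα-KO libraries lie above the 8 others, as for 5.92% of all genes tested. For Scd2 and Srebf1 the genotypes overlap under either RA condition.

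The regulators of the pathway showed small differences between genotypes, none of which passed the test. Srebf2 was at 77.7 and 85.6 FPKM in RARα-KO+RA, 78.0 and 83.4 in RARα-KO, 72.0 and 70.2 in BATF-KO+RA, 76.2 and 72.9 in BATF-KO, 58.2 and 66.8 in WT+RA, and 65.4 and 74.0 FPKM in WT. Srebf2 and Scd1 were the only genes of the 31 for which all 4 RARα-KO libraries were above the 8 others. This is close to the share among all genes tested, 5.92%. For none were they all below the others, which held for 2.77% of all genes. The log2 change of Srebf2 was 0.38 ± 0.12 in RARα-KO+RA against WT+RA (adjusted p = 0.162) and 0.21 ± 0.12 in RARα-KO against WT (adjusted p = 0.706).

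Insig1, whose product holds SREBPs back when sterols are high, was at 31.9 and 39.5 FPKM in RARα-KO+RA, 33.8 and 45.8 in RARα-KO, 23.3 and 23.9 in BATF-KO+RA, 28.0 and 25.1 in BATF-KO, 21.2 and 28.6 in WT+RA, and 21.5 and 32.3 FPKM in WT. RARα-KO libraries were above those of WT and BATF-KO under the same RA condition. Insig1 had a log2 change of 0.56 ± 0.23 in RARα-KO against WT (adjusted p = 0.413) and of 0.51 ± 0.23 with RA (adjusted p = 0.408). Without RA, RARα-KO replicate 1 and WT replicate 2 lay close together.

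Srebf1, whose product favours fatty acid synthesis, was at 46.0 and 51.2 FPKM in RARα-KO+RA, 41.98 and 52.2 in RARα-KO, 54.9 and 46.0 in BATF-KO+RA, 52.5 and 42.5 in BATF-KO, 45.5 and 47.8 in WT+RA, and 40.1 and 47.0 FPKM in WT. Its libraries overlapped between genotypes under either RA condition. Scap, the escort of the SREBPs, was at 35.8 and 43.3 FPKM in RARα-KO+RA, 35.2 and 35.2 in RARα-KO, 41.3 and 36.2 in BATF-KO+RA, 37.0 and 35.5 in BATF-KO, 57.7 and 34.9 in WT+RA, and 49.0 and 39.9 FPKM in WT. Without RA both knockouts had less Scap than WT in each library, with log2 differences of -0.32 ± 0.22 in RARα-KO and -0.28 ± 0.22 in BATF-KO that did not pass the test. With RA the libraries overlapped. Stard4, a carrier of cholesterol between membranes, ranged from 9.33 to 18.5 FPKM and followed the replicate number in the RARα-KO and WT groups.

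Of the remaining genes, most leaned higher in RARα-KO than in WT without passing the test. Without RA, 29 of 31 log2 changes were above 0, with a median of 0.29, against a median of -0.0033 over all genes. The median depended on single libraries: it was -0.0085 without WT replicate 1 and -0.04 without RARα-KO replicate 2, and 0.53 without RARα-KO replicate 1 and 0.56 without WT replicate 2. By role, all 11 genes from squalene to cholesterol (median 0.36) and all 8 of fatty acid synthesis (median 0.33) were higher, as were 6 of 7 from the mevalonate steps (median 0.16) and 4 of 5 regulators and carriers (median 0.14). Libraries did not overlap for Scd1, Insig1 and Srebf2, which were higher, and for Scap, which was lower, where 15% and 14.1% of all genes did not overlap in those directions. In this fit of group means, Scd1 and Insig1 had an unadjusted p under 0.05, as 9.88% of all genes did. Within replicate 1, RARα-KO was higher for 28 genes, and within replicate 2 for 26. In the fit of group means, all 8 genes of activation and growth were also higher in RARα-KO than in WT, with a median of 0.42. Of the 10 replication genes, 8 were higher and 2 lower, with a median of 0.076.

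The median log2 change in RARα-KO+RA against WT+RA was 0.06, with 21 genes higher and 10 lower, and mevalonate genes had a median of -0.06. Here the sign of the median turned with single libraries, to -0.10 without WT+RA replicate 1 and -0.17 without RARα-KO+RA replicate 2, against 0.31 without WT+RA replicate 2 and 0.35 without RARα-KO+RA replicate 1. Non-overlapping libraries, all with RARα-KO+RA higher, were found for Scd1, Srebf2, Insig1 and the elongase Elovl6, where 20.1% of all genes were higher in that way and 17.8% lower. Elovl6, which extends palmitic acid, was at 8.09 and 12.1 FPKM in RARα-KO+RA, 7.74 and 11.1 in RARα-KO, 9.90 and 9.63 in BATF-KO+RA, 9.09 and 8.60 in BATF-KO, 7.32 and 8.03 in WT+RA, and 7.94 and 8.19 FPKM in WT. Both knockouts given RA were thus above WT+RA, though by little in RARα-KO+RA replicate 1.

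**Figure D4:**
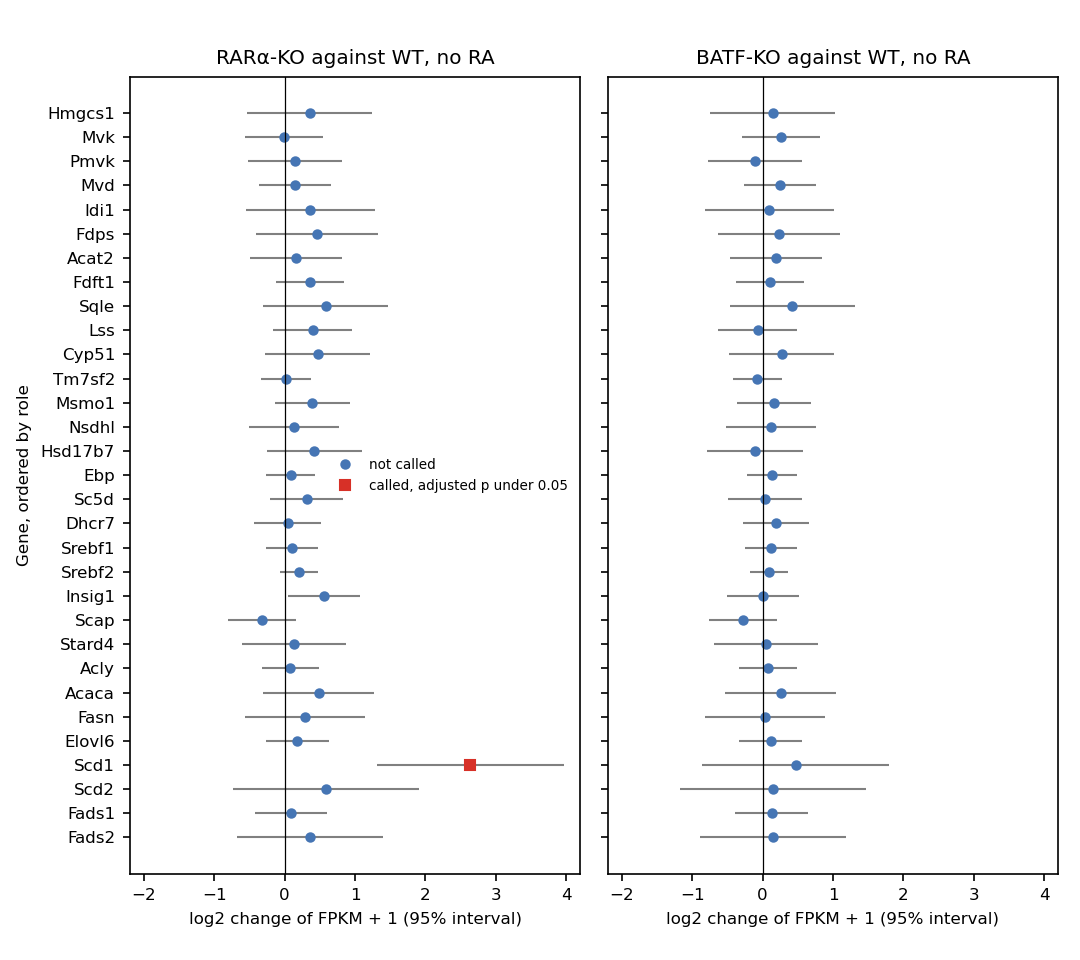
Log2 change of FPKM + 1 (horizontal axes, with 95% intervals) of the 31 genes (vertical axis, ordered by role) in RARα-KO against WT on the left and BATF-KO against WT on the right, both without RA. The square marks Scd1 at 2.64 in RARα-KO, the only gene with an adjusted p under 0.05, and of the other intervals only that of Insig1 in RARα-KO, 0.05 to 1.07, leaves out 0.

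Against BATF-KO, no synthesis gene was called in RARα-KO, where 3.75% of all genes were, nor in RARα-KO+RA against BATF-KO+RA, where 4.16% were. In the limma fit of group means, Scd1 and Insig1 had an unadjusted p under 0.05 in both comparisons, against 12.8% of all genes without RA and 13.5% with RA. Without RA, libraries did not overlap for 7 genes that were higher in RARα-KO and 1 that was lower, where 18.5% and 18.6% of all genes did not. With RA these were 4 and 3 genes, against 18.7% and 21.3% of all genes. Without RA, 23 genes were higher in RARα-KO with a median log2 difference of 0.20, but the median was -0.13 within replicate 1 and 0.45 within replicate 2. Leaving out RARα-KO replicate 2 turned it to -0.17. Lss, which closes the sterol rings as lanosterol synthase, had the third smallest p and was at 9.82 and 14.8 FPKM in RARα-KO+RA, 11.99 and 17.9 in RARα-KO, 10.7 and 10.3 in BATF-KO+RA, 11.1 and 9.57 in BATF-KO, 9.68 and 12.7 in WT+RA, and 9.11 and 13.0 FPKM in WT. Its RARα-KO libraries were above both BATF-KO libraries, a log2 difference of 0.47 ± 0.25 (adjusted p = 0.533), whereas with RA the 2 genotypes overlapped.

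Loss of BATF left the pathway without a single call. Of all genes, 0.0523% were called in BATF-KO against WT and 0.0672% in BATF-KO+RA against WT+RA. None of the 31 genes had an unadjusted p under 0.05 in the limma fit of group means in either comparison, against 3.89% and 4.78% of all genes. Without RA, BATF-KO libraries did not overlap with those of WT for Dhcr7, the last reductase of cholesterol synthesis, and Elovl6, which were higher, and for Scap, which was lower (14.2% and 12.8% of all genes in those directions). With RA this held for Srebf2 and Elovl6, which were higher, and for Fasn, which was lower (17.5% and 13.8% of all genes). The median log2 change was 0.12 (26 genes higher, 5 lower) without RA and 0.11 (24 higher, 7 lower) with RA. This direction was not shared by the replicate numbers: in replicate 1 BATF-KO was higher than WT for 29 genes with a median of 0.37, and in replicate 2 for 9 genes with a median of -0.13. Without WT replicate 1 the median turned to -0.13, and with RA it turned to -0.10 without WT+RA replicate 1. With RA, the same split was 25 genes (0.27) in replicate 1 and 13 genes (-0.02) in replicate 2.

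Mvd, which makes isopentenyl diphosphate, had the second smallest p after Scap. It was at 16.4 and 21.9 FPKM in RARα-KO+RA, 17.3 and 22.6 in RARα-KO, 18.1 and 23.6 in BATF-KO+RA, 19.3 and 23.6 in BATF-KO, 18.6 and 21.2 in WT+RA, and 14.8 and 21.3 FPKM in WT. The groups overlapped, with a log2 change of 0.25 ± 0.23 in BATF-KO against WT (95% interval -0.26 to 0.76). In the fit of group means, the median standard error of a genotype comparison over the 31 genes was 0.25. The median half-width of its 95% interval was 0.57, so that smaller changes could not be told from 0 for the typical gene in this fit, even before adjustment. With a replicate block, 7 of the 31 genes had an unadjusted p under 0.05 in RARα-KO against WT (15.7% of all genes), among them Fdft1 at a log2 change of 0.36.

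RA against no RA gave no call among the 31 genes in any single genotype. Of all genes, 0.00746% were called in RARα-KO, 0.157% in BATF-KO and 0.0672% in WT. None of the 31 had an unadjusted p under 0.05 in these fits of group means, against 1.42%, 3.28% and 4.92% of all genes. With the cultures of a genotype and replicate number paired as a block, 2 genes in RARα-KO, 5 in BATF-KO and 10 in WT had one, against 4.89%, 12.1% and 22.9% of all genes, and none was called. Scd1 had the smallest p of the 31 in BATF-KO (log2 change 0.60 ± 0.09, adjusted p = 0.0576) and in WT (0.49 ± 0.09, adjusted p = 0.0867), and Lss had it in RARα-KO (-0.26 ± 0.08, adjusted p = 0.823). Libraries with and without RA did not overlap for 2 genes higher and 0 lower in RARα-KO (7.9% and 6.87% of all genes), 9 higher and 3 lower in BATF-KO (17.6% and 14.1%), and 1 higher and 0 lower in WT (16.6% and 17.4%). The median log2 change with RA was 0.09 in BATF-KO (25 genes higher, 6 lower) and 0.09 in WT (25 higher, 6 lower), but -0.08 in RARα-KO (8 higher, 23 lower). In WT the lean came from replicate 1, with 27 genes higher and a median of 0.18, while replicate 2 had 15 genes higher and a median of -0.00044.

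The cultures with and without RA of a genotype and replicate number varied together and were treated as 6 pairs. Scd1 was higher with RA in 6 of 6 pairs. The ratio of Scd1 with RA to without was 1.22 and 1.19 in RARα-KO, 1.73 and 1.91 in BATF-KO, and 1.70 and 1.86 in WT. Averaged over the 6 pairs, in a fit chosen after seeing the data, Scd1 rose with RA by a log2 change of 0.44 ± 0.07 (adjusted p = 0.0192, limma), the only call among the 31 genes where 2.61% of all genes were called, 1.7% as higher with RA. Without the pairing the adjusted p was 0.846. Without the filter on low values it was 0.1002, and it was 0.0754, 0.0772 and 0.0727 without the pairs of BATF-KO replicate 1, BATF-KO replicate 2 and WT replicate 2, while the log2 change stayed between 0.40 and 0.48 in every such fit that left out a pair.

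Fasn, the fatty acid synthase itself, was also higher with RA in 6 of 6 pairs, as 7.88% of all genes were. It was at 39.0 and 80.1 FPKM in RARα-KO+RA, 37.4 and 75.9 in RARα-KO, 52.9 and 47.0 in BATF-KO+RA, 48.1 and 41.1 in BATF-KO, 53.2 and 60.05 in WT+RA, and 34.9 and 53.7 FPKM in WT. The ratio with RA to without was largest in WT replicate 1, at 1.52, and between 1.04 and 1.15 in the other 5 pairs. Over the pairs the log2 change was 0.20 ± 0.07 (adjusted p = 0.165), which missed the threshold.

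Acaca, the carboxylase that makes malonyl-CoA, was higher with RA in 5 of 6 pairs. It was at 13.6 and 26.1 FPKM in RARα-KO+RA, 13.9 and 24.9 in RARα-KO, 21.3 and 18.7 in BATF-KO+RA, 15.5 and 16.1 in BATF-KO, 13.98 and 18.9 in WT+RA, and 10.0 and 16.9 FPKM in WT. Its log2 change over the pairs was 0.21 ± 0.07 (adjusted p = 0.154). In this fit 6 of the 31 genes had an unadjusted p under 0.05, against 20.8% of all genes. All 8 genes of fatty acid synthesis had a log2 change above 0 over the pairs, with a median of 0.13, and 7 of them did not pass the test.

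Insig1 was the only one of the 31 genes lower with RA in 6 of 6 pairs, as 6.00% of all genes were. The ratio with RA to without was between 0.834 and 0.989, and the log2 change over the pairs was -0.13 ± 0.04 (adjusted p = 0.153). Srebf2 was lower with RA in 5 of 6 pairs, with the exception of RARα-KO replicate 2, and had a log2 change of -0.07 ± 0.04 (adjusted p = 0.355). The 11 genes from squalene to cholesterol had a median of 5.92e-05 over the pairs, with 6 higher and 5 lower.

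**Figure D5:**
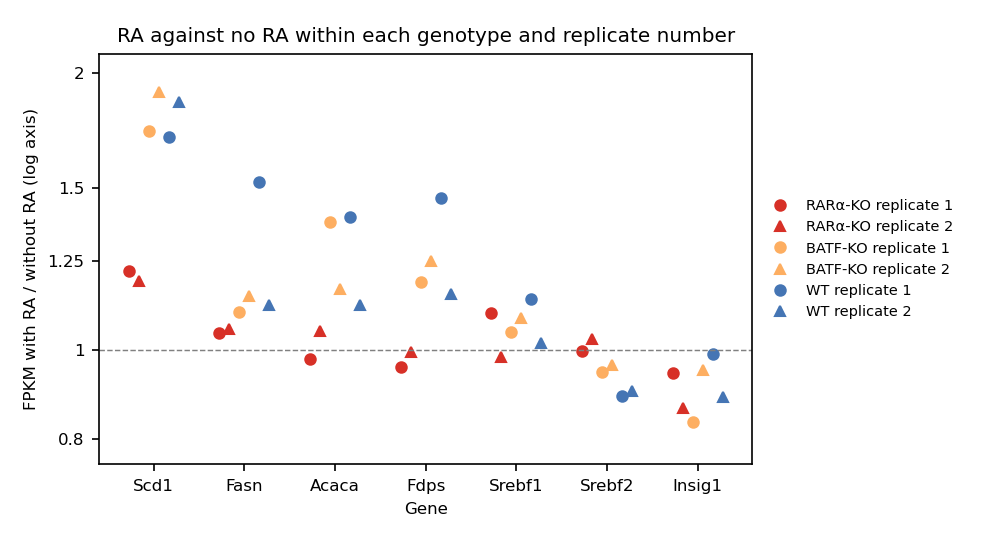
Ratio of FPKM with RA to FPKM without RA (vertical log axis) for 7 genes (horizontal axis) in the 6 pairs of genotype and replicate number, with colours for genotypes, circles for replicate 1 and triangles for replicate 2. Scd1 lies above 1 in all pairs, between 1.19 and 1.91, Fasn lies above 1 in all pairs, and Insig1 lies below 1 in all pairs.

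The direction of the RA effect was set side by side between genotypes. The difference of the RA effect in RARα-KO from that in WT was below 0 for 27 of 31 genes, with a median of -0.23, against 0.0040 over all genes. Within pairs, the median difference was -0.22 in replicate 1 and -0.12 in replicate 2, and with 1 whole pair left out it lay between -0.27 and -0.09, a calculation chosen after seeing the data. Leaving out a single library, which sets a culture against the other replicate number, gave medians between -0.48 (without RARα-KO replicate 1) and 0.10 (without RARα-KO replicate 2). No gene of the table was called (0%). None of the 31 genes had an unadjusted p under 0.05 in limma, against 1.37% of all genes, and with the pairs as a block 6 did, against 8.73% of all genes. A lean below 0 was not particular to the synthesis genes. The same difference was below 0 for 9 of the 10 replication genes (median -0.35) and above 0 for 1. It was below 0 for 7 of the 8 genes of activation and growth (median -0.26) and above 0 for 1. The part of either list in the lean of the synthesis genes was not tested. The difference in BATF-KO from WT had a median of -0.01, with 13 genes above 0 and 18 below, and again no gene of the table was called (0%). None of the 31 had an unadjusted p under 0.05, against 1.12% of all genes.

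For 8 genes, both RARα-KO pairs were lower with RA while both WT pairs and both BATF-KO pairs were higher, as 2.63% of all genes were. Leaving BATF-KO aside gave the same 8 genes, against 5.16% of all genes, and the opposite pattern was found for Elovl6 alone, against 5.07%. These were Fdps and Pmvk of the mevalonate steps, Acat2, which condenses acetyl-CoA, Fdft1, which makes squalene, the late sterol enzymes Nsdhl and Sc5d, and the desaturases Fads1 and Fads2. This set was picked after its values were seen, and each genotype has 2 pairs. Some of these changes were very small. The ratio with RA to without was 0.995 for Fdps and 0.991 for Pmvk in RARα-KO replicate 2, and 1.02 and 1.03 for Nsdhl in WT. Others were larger, such as 1.47 for Fdps in WT replicate 1. Fdft1 had the smallest p for the difference from WT among the 31 genes and was at 12.7 and 16.9 FPKM in RARα-KO+RA, 13.6 and 17.6 in RARα-KO, 13.2 and 16.8 in BATF-KO+RA, 11.8 and 14.1 in BATF-KO, 13.3 and 15.9 in WT+RA, and 10.2 and 13.8 FPKM in WT. The log2 difference of its RA effect was -0.35 ± 0.30 (95% interval -1.03 to 0.34, adjusted p = 1.00). With the pairs as a block it was -0.35 ± 0.11 (adjusted p = 0.537). Hsd17b7, a late sterol enzyme, was among the genes lower with RA in RARα-KO. It was at 3.86 and 5.98 FPKM in RARα-KO+RA, 4.31 and 7.81 in RARα-KO, 4.33 and 4.04 in BATF-KO+RA, 3.76 and 3.74 in BATF-KO, 3.13 and 4.53 in WT+RA, and 3.08 and 5.4 FPKM in WT. Its log2 change with RA in RARα-KO was -0.23 ± 0.30, and the libraries overlapped.

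Neighbouring parts of lipid metabolism gave as few calls in RARα-KO against WT, where 3.29% of all genes were called. Lists this short would hold few calls at that share. In RARα-KO against WT, 0 of 8 other mevalonate and late sterol genes, 0 of 6 genes of SREBP processing, 0 of 9 of sterol uptake and transport, 0 of 16 further genes of fatty acid synthesis and activation and 0 of 9 of fatty acid oxidation passed the limma test. Among 10 LXR receptors, LXR targets and esterification genes, 1 did. That gene was Apoe, which encodes a lipid carrier made in quantity by macrophages. Apoe was at 271 and 169 FPKM in RARα-KO+RA, 256 and 123 in RARα-KO, 37.5 and 49.2 in BATF-KO+RA, 31.4 and 39.5 in BATF-KO, 55.4 and 24.4 in WT+RA, and 46.1 and 21.6 FPKM in WT. It rose by a log2 change of 2.46 ± 0.49 in RARα-KO against WT (adjusted p = 0.0235) and 2.51 ± 0.49 with RA (adjusted p = 0.0191). Abca1 and Abcg1, the LXR-driven sterol exporters, had log2 changes of 0.55 ± 0.31 and -0.17 ± 0.17 in RARα-KO against WT, neither past the test.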

How the data were processed

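RNA of 12 libraries of activated mouse CD8 T cells was sequenced. Per the labels, reads were mapped to GRCm38 with STAR 2.7.8a and assigned to genes with RSEM 1.3.3. The authors deposited FPKM to 2 decimals, with 1 column per library, for 55487 mouse genes and 4 transgenes. The labels name both a total RNA kit and poly-A enrichment, and strandedness is not given in the sources used here, so that overlapping genes cannot be told apart: Fdft1 overlaps Ctsb by 774 bases and Srebf1 overlaps Rai1 by 114 bases. The absolute depth is unknown. The most frequent ratio of low values in a library to those in WT replicate 1 put the relative depth between 0.996 and 1.36, with WT replicate 1 set to 1. Positions came from RefSeq (GRCm38.p6).

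Groups came from the sample titles, with the suffix RA read as RA added. Genes that reached 1 FPKM in 2 or more libraries (13396, with all 31 synthesis genes) were tested with limma 3.58.1 (R 4.3.3) on log2(FPKM + 1), as 6 group means with a variance trend, 6 residual and 3.39 prior degrees of freedom. P-values are two-sided and adjusted by Benjamini-Hochberg over all genes within a comparison, and a gene was called under 0.05. The pseudocount of 1 understates fold changes of low genes. The script was tested on simulated data. RA effects over 6 pairs were fitted with genotype and replicate number as a block: deviations of cultures of a genotype with the same number correlated at 0.398 to 0.578. Genes with values for every library were those called, those with the 2 smallest p in a comparison, and Hmgcs1, Sqle, Srebf1, Srebf2, Insig1, Fasn, Scd1 and Scd2. The 31 genes and the lists were chosen with earlier results of these data known. Alternatives were another pseudocount, no filter, TPM, median-ratio scaling, only the libraries compared, a replicate block and leaving out each library. Python 3.11.15 with pandas 2.3.3, numpy 2.4.6 and matplotlib 3.10.9 made tables and plots.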

Additional observations from a re-analysis of the deposited data

Results flagged for a closer look

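The table holds an entry for the Cre transgene that no comparison above uses. It was at 680.9 FPKM in RARα-KO+RA replicate 1, 86.67 in RARα-KO+RA replicate 2, 824.25 in RARα-KO replicate 1 and 79.29 FPKM in RARα-KO replicate 2, against at most 0.13 FPKM in the 8 BATF-KO and WT libraries. The signal was thus present in the libraries labelled RARα-KO alone, and much higher in replicate 1 than in replicate 2. Of the 31 synthesis genes, 28 in RARα-KO and 31 in RARα-KO+RA were higher in replicate 2, Scd1 among them. The part of Cre in these results was not tested. Since WT libraries lacked the signal, Cre and loss of RARα cannot be told apart in RARα-KO against WT.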

How the results depend on the processing

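The count of synthesis genes called in RARα-KO against WT was 1, and it was 0 with a pseudocount of 0.1, 0 without a filter on low values and 0 with only the libraries compared; leaving out 1 library gave 0 to 1. It stayed 1 with TPM, with median-ratio scaling and with a replicate block (Scd1 adjusted p = 0.0392). The other 10 planned comparisons gave 0 calls in each of these alternatives. Over the 6 RA pairs, an analysis chosen after seeing the data, the count was 1 and fell to 0 without the filter and to 0 with no replicate block; leaving out a pair gave 0 to 1. For Scd1, no alternative turned the direction of either call. Leaving out 1 library turned the sign of the median over the 31 genes in all comparisons but RA in BATF-KO (0.03 to 0.12). The medians ran from -0.04 to 0.56 in RARα-KO against WT, -0.17 to 0.35 in RARα-KO+RA against WT+RA, -0.13 to 0.34 in BATF-KO against WT, -0.10 to 0.30 in BATF-KO+RA against WT+RA, -0.17 to 0.48 in RARα-KO against BATF-KO, -0.28 to 0.26 in RARα-KO+RA against BATF-KO+RA, -0.37 to 0.20 for RA in RARα-KO, -0.10 to 0.36 for RA in WT, -0.48 to 0.10 for the RA effect in RARα-KO minus that in WT, and -0.29 to 0.21 for that in BATF-KO minus WT. Leaving out 1 library breaks a pair of RA cultures; with a whole pair left out, the RA effect in RARα-KO minus that in WT had medians of -0.27 to -0.09. Deviations of libraries with the same number in different genotypes correlated at 0.0795 to 0.452 over 12 pairs, not all above 0.1, so the number was not taken as pairing genotypes. The highest, 0.452, was that of WT with RARα-KO, both without RA. It exceeded 0.427 for WT with WT+RA and 0.398 for BATF-KO with BATF-KO+RA, which were treated as pairs. The replicate block raised the genes called in RARα-KO against WT to 502 higher and 159 lower, against 372 and 69 without it. With the block, 7 of the 31 genes had an unadjusted p under 0.05 in RARα-KO against WT (Scd1, Insig1, Fdps, Fdft1, Sqle, Cyp51 and Msmo1; 15.7% of all genes), 3 in RARα-KO+RA against WT+RA (17.9%), 5 in RARα-KO against BATF-KO (18.2%), 5 in RARα-KO+RA against BATF-KO+RA (19.7%), 1 in BATF-KO against WT (8.26%) and 0 in BATF-KO+RA against WT+RA (8.87%). With 2 libraries a group and no counts, changes of Scd1 near or under 1 FPKM are the least certain.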
